A study of Trametes cinnabarina with 16 samples.

Results

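In Pycnoporus cinnabarinus, a white-rot fungus that the labels list as Trametes cinnabarina, 120 genes were lower in each of 6 sugar libraries than in every library without an added energy source. They were chosen by their TPM values in the sugar and control libraries. A gene was included when its lowest control value was at least 10 TPM and at least 2 times its highest value on sugar. The 6 sugar libraries of this rule were cellobiose 1 to 3, glucose 1, and maltose 1 and 2, and the third maltose library played no part in the choice. TPM is a transcript's share of a library corrected for its length, with a total of 1000000 in each library. The 120 genes are 0.429% of the 27990 genes of the transcript assembly and 1.44% of the 8359 genes with at least 10 TPM in every control library. Because the sugar and control values chose the genes, the distance between those groups is given below as a description with no test.

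White-rot fungi feed on wood and other plant litter by secreting enzymes that open cellulose, hemicellulose and lignin. In many fungi a readily used sugar keeps genes for other carbon sources switched off, which is known as carbon catabolite repression. When sugar runs short, fungal cells draw on stored carbohydrate and lipid and recycle their own proteins and organelles. Cellobiose is the glucose disaccharide that cellulose yields on digestion, and maltose is the one that starch yields.

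RNA of strain PB94 was sequenced as the whole organism after at least 5 days on semi-minimal medium inoculated from an overgrown agar piece. The groups were cellobiose (3 libraries), glucose (1), maltose (3), poplar (3), switchgrass (3) and control (3), where control had no energy substrate, 16 libraries in all. The 10 sugar and control libraries were made as mRNA libraries, and the 6 plant libraries from RNA depleted of ribosomal RNA. In each comparison of a plant substrate with control, substrate and library preparation cannot be told apart. The sources do not say whether replicates came from different cultures, and the p-values below cover only the spread among these libraries, technical or not. A lower TPM can mean less of a gene's RNA or more of other RNA, and in bulk RNA fewer cells of a kind and less RNA per cell cannot be told apart.

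The group names themselves carry a limit. The deposited values come in a pair of tables whose 16 columns are identical in value and agree in 0 of 16 names, and the names of one table are used here. Under the other names 1 gene met the same rule, and 0 of the 120 did. The identifiers come from the assembly, and 0 of them matched the RefSeq list of 10441 genes of another strain. No function, product or sequence is therefore given for any of the genes, and how the list relates to carbon repression or to starvation pathways was not tested. The third maltose library stood apart, with 83.7% of its TPM in its 10 most abundant genes, against 6.57% to 12.7% in the other sugar and control libraries. In the plant libraries that share was 25.6% to 75.3%. Depth is unknown in every library, since TPM does not keep it.

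Summed, the 120 genes took 0.158%, 0.523% and 0.531% of all TPM in the cellobiose libraries, 0.460% in the glucose library and 0.715%, 0.664% and 0.0585% in the maltose libraries. They took 2.34%, 1.19% and 1.73% on poplar and 1.92%, 3.19% and 1.29% on switchgrass, against 2.17%, 3.43% and 2.52% in the control libraries. The sum was thus low on all sugars by the choice of genes. Among the plant libraries, which the choice did not use, poplar 1 and switchgrass 2 reached into the control range. Different genes carried the plant and control sums. The 13 genes whose plant libraries all lay above control held 0.4107% to 1.808% on plant material and 0.03298% to 0.04924% in control. The 50 whose plant libraries all lay below control held 0.03097% to 0.2155% and 1.497% to 2.54%. The other 57 held 0.6112% to 1.261% and 0.6398% to 0.8377%. Plant and control values defined these sets, so the contrast is partly by definition. Group means of the share of all 120 genes were 0.404% ± 0.213 on cellobiose, 0.479% ± 0.365 on maltose, 1.76% ± 0.578 on poplar, 2.13% ± 0.970 on switchgrass and 2.71% ± 0.649 in control (SD, n = 3 each). Without the third maltose library the maltose mean was 0.690% ± 0.0364 (SD, n = 2). A sum is carried by its most abundant genes, and the 10 highest held 50.9% of the control total.

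**Figure D1:**
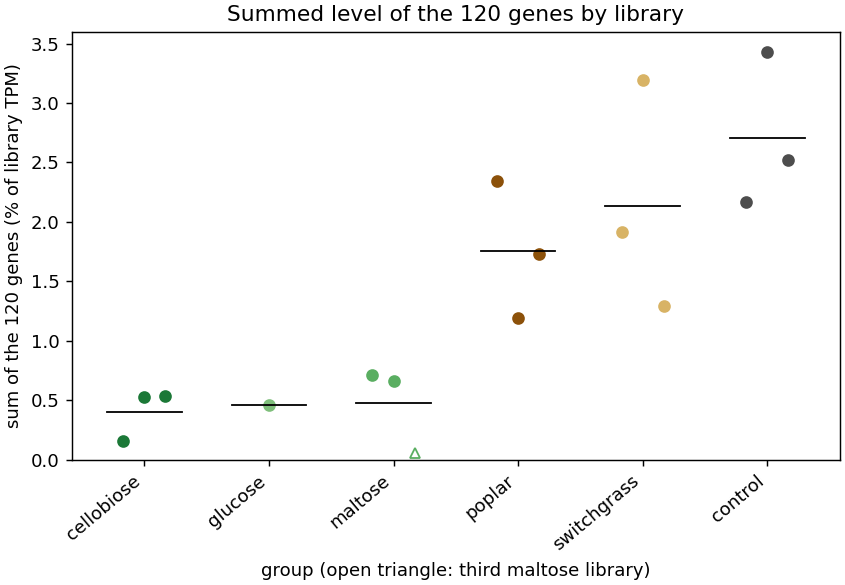
Share of each library's TPM held by the 120 genes together (vertical axis, %), by group, with 1 point per library and a bar at the group mean. The open triangle is the third maltose library, which was not used to choose the genes. Sugar libraries lie at or below 0.715%, and the plant libraries between 1.19% and 3.19% overlap the control libraries at 2.17% to 3.43%.

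By the median gene the plant libraries lay further below control than by the sum. Median TPM over the 120 genes was 4.86, 8.39 and 8.66 in the cellobiose libraries, 6.41 in glucose, and 9.07, 10.2 and 0.93 in maltose. It was 14.1, 5.40 and 28.5 on poplar and 35.4, 29.9 and 12.6 on switchgrass, against 46.7, 78.1 and 51.5 in the control libraries. All 6 plant medians lay below all 3 control medians, and the second poplar library lay among the sugar libraries. That library held 75.3% of its TPM in its 10 most abundant genes, which lowers every other TPM value in it. Median-of-ratios scaling sets libraries level on their typical gene, and with it the plant medians were 23.4 to 36.5, against 27.0 to 42.9 in control.

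The genes differed widely in level and in how far below control they were on sugar. Control means ran from 11.1 to 2993 TPM with a median of 61.6 TPM, and 42 genes averaged at least 100 TPM, 18 at least 500 TPM and 7 at least 1000 TPM. The ratio of the lowest control value to the highest of the 6 sugar values had a median of 2.70, quartiles of 2.27 and 3.47, and a maximum of 16.1. It reached 3 in 46 genes, 5 in 15 genes and 10 in 4 genes. In most of the list the ratio thus lay between the threshold of 2 and 3. The narrowest inclusion was TR18068__c3_g2, with a highest sugar value of 6.63 TPM and a lowest control value of 13.3 TPM. TR6065__c0_g1 followed with a highest sugar value of 12.49 TPM and a lowest control value of 25.01 TPM, and TR3146__c0_g1 with 15.5 TPM and 31.1 TPM. Just outside lay TR14750__c0_g1, at 61.2 TPM in its highest sugar library and 122.4 TPM in its lowest control library. TR8661__c0_g1 (5.90 TPM and 11.5 TPM) and TR3782__c0_g1 (43.3 TPM and 83.6 TPM) came next.

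**Figure D2:**
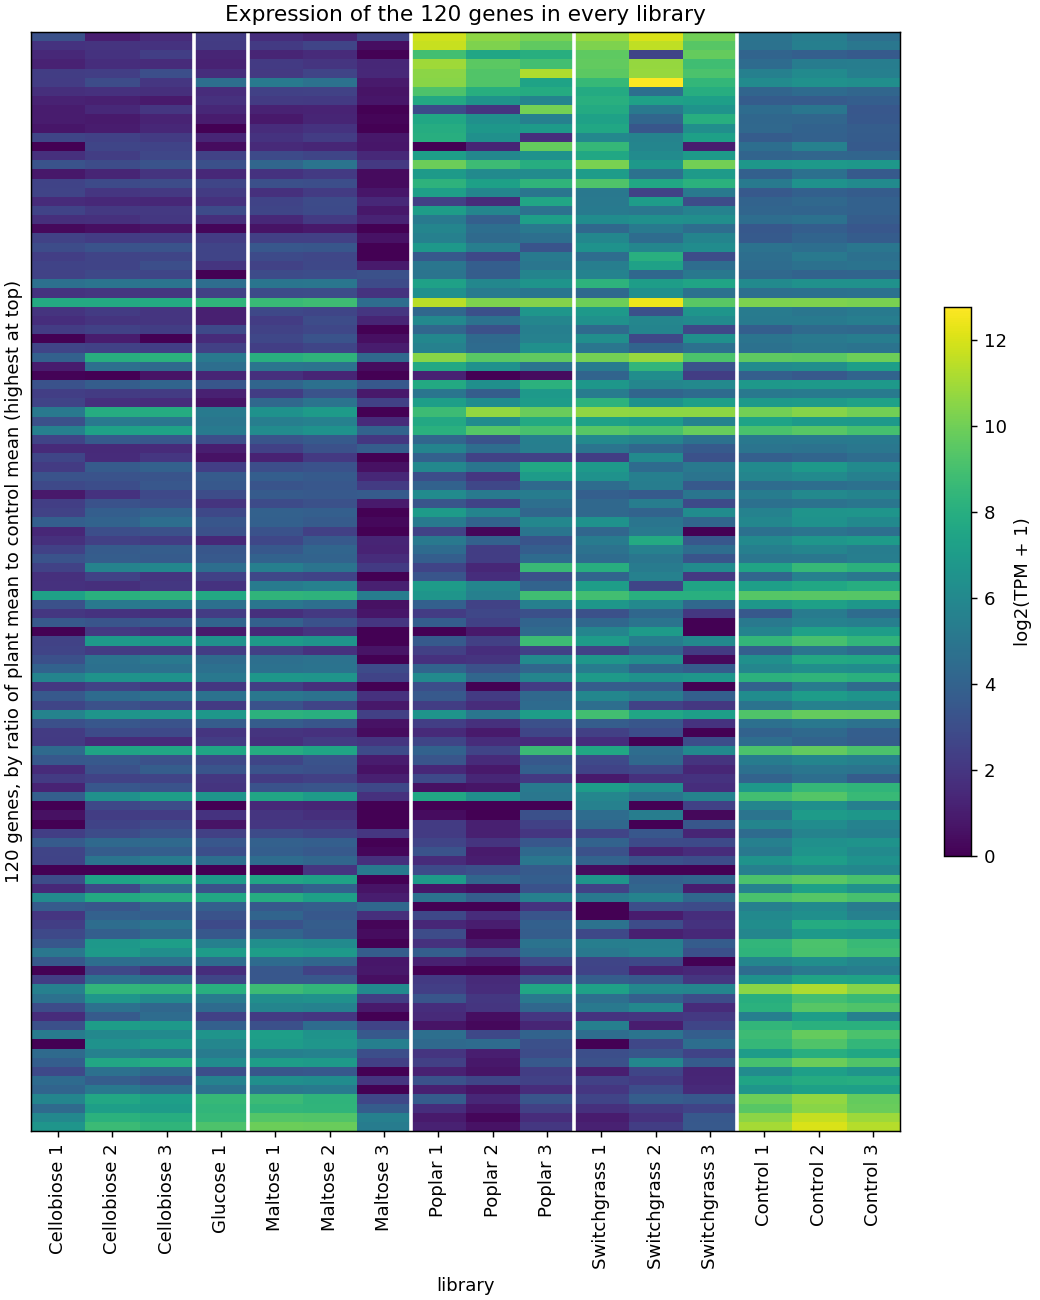
Level of each of the 120 genes (rows) in each of the 16 libraries (columns), as log2(TPM + 1), with rows ordered by the ratio of the plant mean to the control mean, highest at the top. The columns of the 6 sugar libraries of the rule are darker than the control columns by the choice of genes. The plant columns are brighter than control at the top of the map and darker at the bottom.

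The most abundant of the genes were a pair from different assembly clusters with nearly parallel levels, TR17256__c0_g1 and TR5381__c0_g1. TR17256__c0_g1 was at 98.2, 409 and 330.5 TPM on cellobiose, 576 TPM on glucose and 962, 922 and 39.8 TPM on maltose, against 2113.5, 4266 and 2600.4 TPM in control. TR5381__c0_g1 stood at 0.612 to 0.742 of TR17256__c0_g1 in the 6 sugar libraries of the rule and at 0.702 to 0.734 of it in the control libraries. On log2(TPM + 1) the pair had a correlation of 0.999 over the 16 libraries, the highest of the 7124 pairs of the 120 genes from different assembly clusters. The median over those pairs was 0.53, and these values are descriptions that include the libraries used for the choice. TR2410__c0_g1 ran close to the pair as well, at 0.325 to 0.353 of TR17256__c0_g1 in control and 0.210 to 0.590 of it in the 6 sugar libraries. The ratios between these 3 genes in the plant libraries rest on values of a few TPM and spread far more.

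Other abundant genes differed in which sugar library was lowest. TR12343__c0_g1 was at 46.6, 336 and 328.5 TPM on cellobiose, 261 TPM on glucose and 422, 334 and 67.5 TPM on maltose, against 1508 TPM, 2353 TPM and 1394 TPM in control. TR15122__c0_g1 was at 34.9, 235 and 227 TPM on cellobiose, 37.5 TPM on glucose and 89.3, 125.5 and 0 TPM on maltose, against 1068, 1408 and 1046.5 TPM in control. In TR12343__c0_g1 the first cellobiose library and the third maltose library stood below the rest, and in TR15122__c0_g1 the glucose library did so too. TR5405__c0_g1 was even across cellobiose and higher on maltose 1 and 2, at 223, 225 and 220.2 TPM on cellobiose, 319 TPM on glucose and 398, 445 and 22.6 TPM on maltose, against 1202, 1271 and 1156 TPM in control. TR767__c0_g1 was at 51.2, 98.3 and 103 TPM on cellobiose, 108 TPM on glucose and 288, 261 and 4.40 TPM on maltose, against 598, 852 and 830 TPM in control.

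The genes furthest below control on sugar spanned a wide range of control levels. TR10917__c3_g1, with the ratio of 16.1, was at 0, 3.35 and 2.65 TPM on cellobiose, 0.91 TPM on glucose and 1.75, 2.84 and 0 TPM on maltose, against 54.0, 158 and 136 TPM in control. Its assembly cluster, a group of contigs that the assembler linked, held 4 genes, and 3 of them are on the list. The other members are TR10917__c0_g1, with a ratio of 11.1, and TR10917__c2_g1, with 7.38. Such neighbours may be fragments or near copies of one gene, so the 3 are not independent. TR11619__c0_g1 was listed at 0 TPM in all 3 cellobiose libraries and in glucose, and at 0, 2.95 and 35.75 TPM on maltose, against 46.6, 63.9 and 58.5 TPM in control. It was thus at or near 0 in the sugar libraries of the rule, while the third maltose library lay closer to the control values. TR7018__c1_g1, with a ratio of 11.9, did not exceed 0.84 TPM in any sugar library and was at 10.3, 12.9 and 10.02 TPM in control, the lowest control mean of the 120 genes. TR10663__c0_g1 was at 0 to 6.06 TPM across all sugar libraries, against 54.1, 72.3 and 49.95 TPM in control. TR11332__c0_g1 was at 0.12 to 1.49 TPM, against 18.0, 17.5 and 10.6 TPM in control. Both had a narrow control range next to the TR10917 genes. TR18232__c1_g2 was at 0 to 6.89 TPM across all sugar libraries, against 54.3, 80.3 and 44.3 TPM in control, and it was listed at 0 TPM in all 3 poplar libraries.

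Control libraries varied more in these genes than across all genes with at least 10 TPM in every control library, a set not matched on level. The median coefficient of variation across control was 23.0% for the 120 genes, against 10.2% for those 8359 genes. Control 1 was the lowest control library for 60.0% of the 120 genes, against 42.8% of the 8359. Control 2 was the highest for 72.5% of them, against 50.2% of the 8359. The first control library most often set the value that the rule used, and without it 172 genes met the rule. In the TR10917 genes the gap was wide: TR10917__c0_g1 had 112, 361 and 325 TPM in control 1 to 3.

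Within cellobiose, the first library was the lowest for most of the genes. It stood below both other cellobiose libraries for 92 of the 120 (76.7%), against 33.6% of the 8359 genes with at least 10 TPM in control. For 49 genes (40.8%) it was under 50% of both, against 6.16% of the 8359. Median coefficients of variation on cellobiose were 42.7% for the 120 genes and 13.8% for the 8359. The cellobiose means below therefore often combine 1 low library and 2 higher ones. The rule capped the cellobiose values of the 120 genes and not those of the 8359. Cellobiose 1 also listed more genes at 0 TPM, 8250 against 4858 in cellobiose 2 and 5696 in cellobiose 3. Among the 8359 genes, 96 were at 0 TPM in cellobiose 1, against 8 in cellobiose 2 and 15 in cellobiose 3. How far the choice of genes or the library itself set these shares was not tested.

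Among the sugars the genes were most often highest on maltose 1 and 2. Of the 3 group means, that of maltose 1 and 2 was the highest for 76 genes, that of cellobiose for 26 and that of glucose for 18. Across the 8359 genes with at least 10 TPM in control, maltose was highest for 12.3%, cellobiose for 35.1% and glucose for 52.5%. Glucose was the lowest of the 3 for 55 genes, cellobiose for 56 and maltose for 9, while across the 8359 genes glucose was lowest for 10.5%. Both of maltose 1 and 2 lay above all cellobiose libraries for 42 genes (35.0%, against 21.2% of the 8359) and below all of them for 1 (0.833%, against 31.1% of the 8359). The single glucose library lay below all 5 other sugar libraries of the rule for 23 genes (19.2%, against 5.05% of the 8359). These shares describe sugar libraries that the choice had capped together, and with 1 glucose library no spread can be given.

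The widest gaps between sugars included 4 genes that stood higher in maltose 1 and 2 than in any cellobiose or glucose library. TR535__c0_g1 was at 5.08, 2.39 and 2.12 TPM on cellobiose, 0.66 TPM on glucose and 18.5, 29.2 and 4.59 TPM on maltose, against 114, 129 and 156 TPM in control. TR4168__c0_g1 was at 2.51, 2.28 and 3.16 TPM on cellobiose, 2.70 TPM on glucose and 38.9, 48.4 and 1.18 TPM on maltose, against 145, 191 and 249 TPM in control. In both genes the first and second maltose libraries stood above every cellobiose and glucose library, and in TR4168__c0_g1 the third maltose library was the lowest of all. TR7849__c0_g1 had its split inside cellobiose, at 14.4, 257 and 284 TPM, with 34.8 TPM on glucose and 268, 309.6 and 18.9 TPM on maltose, against 770.1, 752 and 994 TPM in control. TR5721__c0_g2 was listed at 0 TPM on glucose but at 4.78, 5.83 and 5.41 TPM on cellobiose and 6.52, 7.22 and 8.01 TPM on maltose, against 19.0, 15.7 and 16.5 TPM in control. TR19142__c3_g1 was at 0, 0.97 and 0 TPM on cellobiose, 1.94 TPM on glucose and 5.65, 8.49 and 0.46 TPM on maltose, against 29.4, 35.2 and 41.8 TPM in control.

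**Figure D3:**
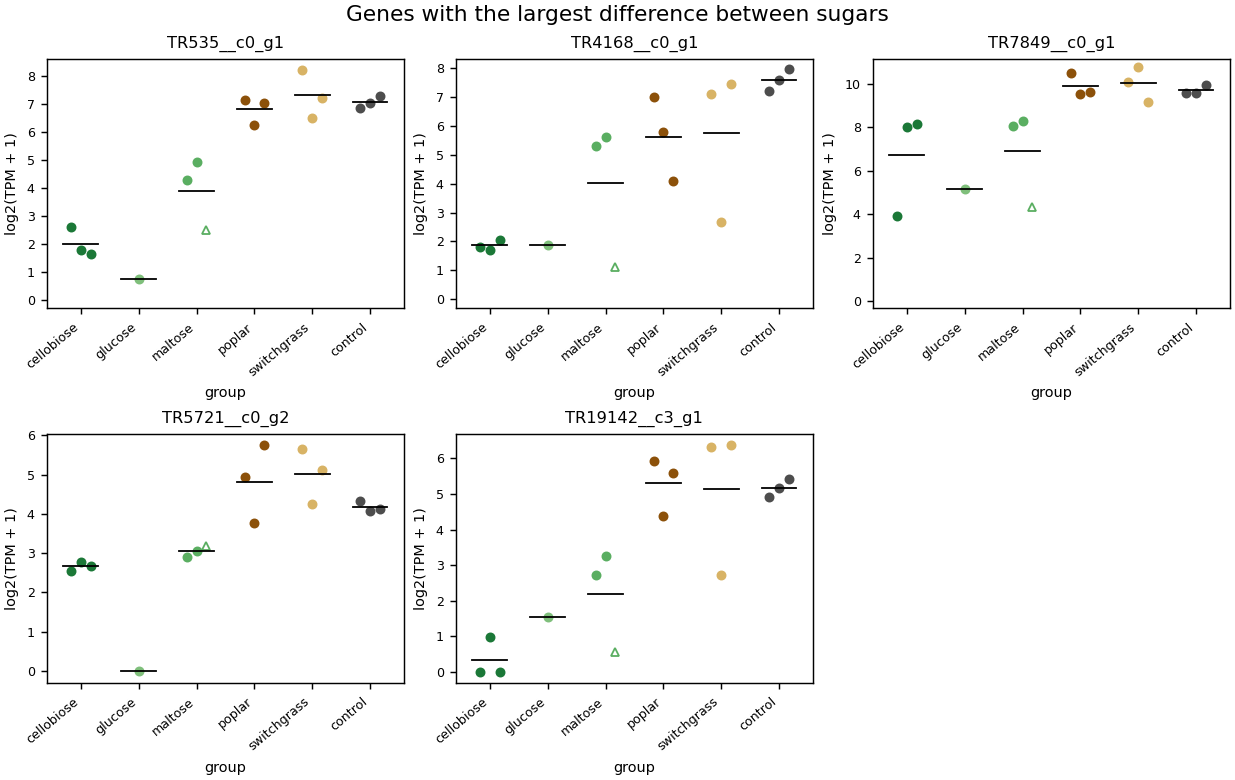
Log2(TPM + 1) by group for the 5 genes with the widest gap between the means of cellobiose, glucose, and maltose 1 and 2, with 1 point per library, bars at the group means and an open triangle for the third maltose library. In TR535__c0_g1 and TR4168__c0_g1 maltose 1 and 2 lie above all cellobiose points, and in TR7849__c0_g1 the first cellobiose library lies with glucose.

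Cellobiose against maltose was tested across all genes with limma on log2(TPM + 1), fitted to 6 groups, with Benjamini-Hochberg adjustment over the 23981 genes that had at least 1 TPM in at least 3 libraries. All 120 genes were among those tested. The rule capped cellobiose 1 to 3 and maltose 1 and 2 alike, so their values also chose the genes, and the counts are given beside those of all genes with nothing read from them. At an adjusted p under 0.05, 0 of the 120 were called, against 0.484% of all genes tested. At an unadjusted p under 0.05 there were 6 (5.0%), against 13.9% of all. The smallest adjusted p was 0.251, in TR11619__c0_g1, with a log2 fold change of cellobiose over maltose of -2.39 ± 0.872 (SE). Without the third maltose library limma called 2 of the 120 genes lower on cellobiose, against 5.16% of all genes tested. They were TR535__c0_g1 at -2.60 ± 0.553 (adjusted p = 0.00527) and TR9733__c0_g2, named for this call alone, at -2.43 ± 0.507 (adjusted p = 0.00444). TR535__c0_g1 was also called with that library kept and median-of-ratios scaling, at -2.94 ± 0.537 (adjusted p = 0.0211). Without the first maltose library TR11619__c0_g1 was called, at -3.59 (adjusted p = 0.043). The median log2 fold change of the 120 genes was 0.36, against 0.65 over all genes, and -0.41 without the third maltose library, against 0.10 over all genes.

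The third maltose library was below the lowest control value in 120 of the 120 genes. That share reads against 96.7% of the 8359 genes with at least 10 TPM in every control library, and nearly all genes had low TPM in this library. Under 50% of the lowest control value were 118 genes, against 92.9% of the 8359. The exceptions were TR11619__c0_g1, at 35.75 TPM against a lowest control value of 46.6 TPM, and TR5721__c0_g2, at 8.01 TPM against 15.7 TPM. With median-of-ratios scaling 98 of the 120 genes were below the lowest control value, against 54.0% of the 8359. The library listed 23 of the 120 genes at 0 (19.2%, against 10.3% of the 8359), where 0 can also stand for an estimate that failed.

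On plant material the 120 genes did not move as one group. In 13 genes (10.8%) all 6 plant libraries lay above every control library, against 3.51% of all genes tested and 1.23% of the 8359 with at least 10 TPM in control. In 50 genes (41.7%) all 6 lay below every control library, against 31.2% and 64.3%. In the remaining 57 the ranges overlapped. The ratio of the plant mean to the control mean ran from 0.00119 to 71.7, with a median of 0.443 over the 120 genes and 0.352 over the 8359. It exceeded 1 in 38.3% of the 120 genes, against 9.95% of the 8359, and was under 0.1 in 24.2%, against 7.54%. Both of these ratio cutoffs were thus passed more often by the 120 genes than by the 8359, a set not matched on level. By the ranges, genes with all 6 plant libraries below control were less frequent among the 120 (41.7%, against 64.3%). The plant libraries took no part in the choice of genes, but the control libraries did, and preparation differs between them.

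**Figure D4:**
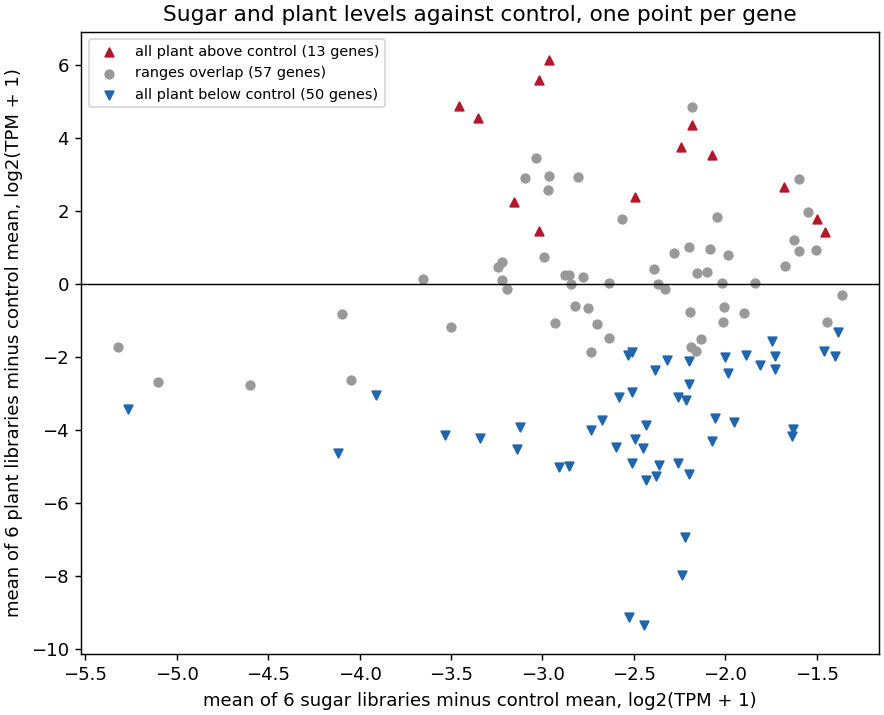
Each point is 1 of the 120 genes: the mean over the 6 sugar libraries of the rule minus the control mean (horizontal) against the mean over the 6 plant libraries minus the control mean (vertical), both on log2(TPM + 1). All points lie left of 0 by the choice of genes, while vertically 13 genes have every plant library above control, 50 have every one below and 57 overlap; both axes subtract the same control libraries, so no relation is read from the plot.

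Genes above control on plant material were low in control and lower still on sugar. For these 13 genes the median plant mean was 259.6 TPM and the median sugar mean 3.40 TPM, against a median control mean of 18.4 TPM. For the 50 genes below control the median plant mean was 7.29 TPM and the median sugar mean 23.3 TPM, against a median control mean of 120.4 TPM. For the 57 genes between them the median plant mean was 50.9 TPM and the median sugar mean 5.28 TPM, against 35.4 TPM in control. Against the sugars, all 6 plant libraries lay above all 6 sugar libraries of the rule in 35 genes (29.2%, against 1.56% of the 8359) and below all 6 in 12 genes (10%, against 49.3%). The rule capped the sugar values of the 120 genes and not those of the 8359, so nothing is read from these differences.

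TR8734__c0_g2 had the highest ratio of plant to control, 71.7. It was at 3649, 1536 and 1165 TPM on poplar and 1772, 4149 and 1005 TPM on switchgrass, against 27.6, 41.1 and 23.9 TPM in control. On sugars it ran from 1.09 to 7.97 TPM, so the 3 kinds of culture did not overlap. Its limma log2 fold change against control was 5.91 ± 0.826 on poplar (adjusted p = 0.00018) and 5.97 ± 0.826 on switchgrass (adjusted p = 0.000112). It was higher in 6 of 6 plant libraries.

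A pair of genes from cluster TR13643 followed the same course. TR13643__c4_g1 was at 3246, 1244 and 786 TPM on poplar and 1240.2, 2995 and 693 TPM on switchgrass, against 27.3, 44.7 and 32.2 TPM in control. TR13643__c1_g1 was at 1930.2, 733 and 482 TPM on poplar and 817, 1689.5 and 459.6 TPM on switchgrass, against 21.3, 39.7 and 41.3 TPM in control. Their levels correlated at 0.99 over the 16 libraries on log2(TPM + 1), and as contigs of one cluster they may share reads. The limma log2 fold changes of TR13643__c4_g1 were 5.39 ± 0.821 on poplar (adjusted p = 0.000455) and 5.29 ± 0.821 on switchgrass (adjusted p = 0.000401).

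TR8062__c0_g1 was at 1501, 624 and 2437 TPM on poplar and 735, 1757 and 558 TPM on switchgrass, against 46.9, 69.0 and 44.4 TPM in control. It did not exceed 7.26 TPM on any sugar. Its limma log2 fold change was 4.63 ± 0.771 on poplar (adjusted p = 0.00101) and 4.07 ± 0.771 on switchgrass (adjusted p = 0.00264). TR11346__c0_g1 was less even, at 479, 186 and 251 TPM on poplar and 766, 5.21 and 863 TPM on switchgrass, against 16.6, 13.6 and 11.3 TPM in control. The second switchgrass library fell below control, unlike the other 5 plant libraries. Its limma log2 fold change was 4.27 ± 1.25 on poplar (adjusted p = 0.0356), and 3.45 ± 1.25 on switchgrass (adjusted p = 0.0938), which missed the threshold. Without the second switchgrass library limma gave 5.79 on switchgrass (adjusted p = 0.000126), and without the third maltose library 3.45 (adjusted p = 0.0474). The call on poplar was lost when any 1 poplar or control library was left out, with an adjusted p of up to 0.119.

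At the other end stood 4 of the 10 genes most abundant in control among the 120, and TR8628__c0_g1. TR17256__c0_g1 was at 1.29, 0.55 and 3.17 TPM on poplar and 1.24, 4.02 and 11.0 TPM on switchgrass, so its control mean of 2993 TPM was 844 times its plant mean. TR5381__c0_g1 was at 0.90, 0.18 and 2.04 TPM on poplar and 0.99, 2.47 and 10.5 TPM on switchgrass, against 1484, 3132 and 1874 TPM in control. Both were lower on plant material than on any sugar library, the third maltose library included. The limma log2 fold changes of TR17256__c0_g1 were -10.19 ± 1.08 on poplar (adjusted p = 7e-06) and -9.12 ± 1.08 on switchgrass (adjusted p = 1.73e-05).

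TR2410__c0_g1 was at 2.20, 0.72 and 4.28 TPM on poplar and 2.45, 3.46 and 4.95 TPM on switchgrass, against 687.5, 1426 and 917 TPM in control. TR6005__c0_g1 was at 12.0, 1.67 and 9.22 TPM on poplar and 5.17, 12.8 and 10.3 TPM on switchgrass, against 989, 1668 and 864 TPM in control. In TR2410__c0_g1 every sugar library, at 12.2 to 339.96 TPM, stood between the plant and the control libraries. TR8628__c0_g1 was at 1.19, 0.57 and 2.04 TPM on poplar and 3.05, 7.13 and 1.89 TPM on switchgrass, against 103, 150.4 and 146 TPM in control. Limma called all 3 lower on both plant substrates, with log2 fold changes from -8.30 ± 1.06 for TR2410__c0_g1 on poplar (adjusted p = 7.02e-05) to -4.86 ± 1.01 for TR8628__c0_g1 on switchgrass (adjusted p = 0.00549). With a pseudocount of 0.1 the call of TR8628__c0_g1 on switchgrass was lost (adjusted p = 0.05).

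**Figure D5:**
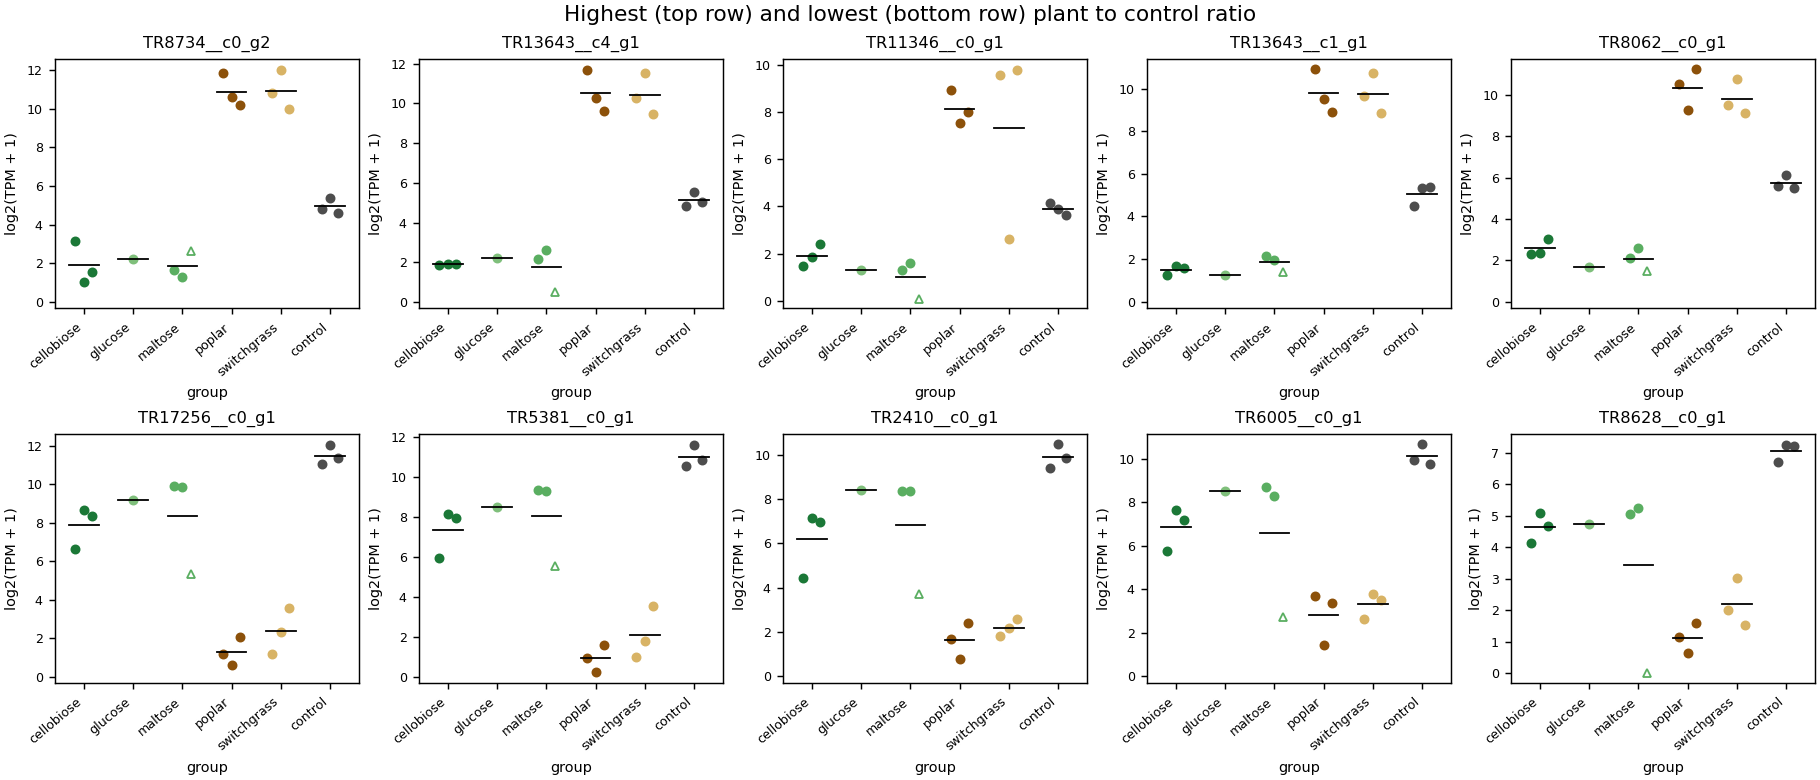
Log2(TPM + 1) by group for the 5 genes with the highest (top row) and the 5 with the lowest (bottom row) ratio of plant mean to control mean, with 1 point per library, bars at the group means and an open triangle for the third maltose library. The top-row genes run from sugar through control to plant, except for 1 switchgrass library of TR11346__c0_g1 between the control and sugar points; the bottom-row genes run from plant to control, with maltose 1 and 2, cellobiose and glucose between them.

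Not all abundant genes were low on plant material. TR5405__c0_g1 was at 2728, 1245 and 1335 TPM on poplar and 983, 5506 and 719 TPM on switchgrass, against 1202, 1271 and 1156 TPM in control. TR15122__c0_g1 was at 436, 1650.5 and 910 TPM on poplar and 1597, 1517 and 1528 TPM on switchgrass, against 1068, 1408 and 1046.5 TPM in control. TR7849__c0_g1 was at 1420, 724 and 794 TPM on poplar and 1075, 1761 and 573 TPM on switchgrass, against 770.1, 752 and 994 TPM in control. In these 3 genes the plant and control ranges overlapped, and limma called none of them on either plant substrate. TR12343__c0_g1 was at 4.24, 2.08 and 191 TPM on poplar and 155, 59.3 and 54.1 TPM on switchgrass, and it was called lower on both, at -6.87 ± 1.27 (adjusted p = 0.00247) and -4.41 ± 1.27 (adjusted p = 0.0399). TR12022__c1_g1 was at 4.32, 0.78 and 10.7 TPM on poplar and 7.93, 59.5 and 12.1 TPM on switchgrass, against 528, 948 and 636 TPM in control, and it was called lower on both as well.

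Across the 120 genes, limma called 9 higher on poplar than in control (7.5%, against 2.21% of all genes tested) and 42 lower (35.0%, against 8.6%). Of the 8359 genes with at least 10 TPM in control, 0.502% were called higher and 20.7% lower. On switchgrass 6 were called higher than in control (5.0%, against 2.6% of all genes tested) and 32 lower (26.7%, against 4.74%). Of the 8359, 0.574% were called higher and 9.62% lower. The control libraries also chose the 120 genes, and preparation differs between plant and control. These counts are therefore a description beside their background shares. The 6 genes called higher on switchgrass were all called higher on poplar too, and 30 were called lower on both, but the same control libraries stand in both comparisons. The same overlap over all genes is not given here, so nothing is read from it. The 6 were TR8734__c0_g2, TR8062__c0_g1, TR11995__c0_g1, TR4153__c0_g1 and the pair from cluster TR13643. TR4153__c0_g1, a gene singled out here with its values known, was at 206, 93.1 and 53.5 TPM on poplar and 264, 155 and 147 TPM on switchgrass, against 12.2, 11.8 and 13.0 TPM in control. TR11995__c0_g1, singled out likewise, was at 140.4, 60.6 and 90.3 TPM on poplar and 195, 70.8 and 121 TPM on switchgrass, against 16.5, 17.8 and 17.1 TPM in control.

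The split between higher and lower depended on the scaling. The median log2 fold change over all genes was -0.74 on poplar and -0.58 on switchgrass in TPM, and 0.27 and 0.14 with median-of-ratios scaling. With that scaling limma called 29 of the 120 genes higher and 32 lower on poplar, against 11.9% and 5.39% of all genes tested. On switchgrass it called 20 higher and 28 lower, against 10.7% and 5.39%. All 5 genes with the lowest plant ratio and 4 of the 5 with the highest were called in the same direction on both substrates with either scaling, and TR11346__c0_g1 was the exception. These genes were picked as extremes of that ratio in the same libraries, so calls in its direction were favoured by the pick. The counts in TPM also rested on single libraries. Without the second control library 5 were called higher and 27 lower on poplar, against 1.08% and 1.69% of all genes, and 5 and 16 on switchgrass, against 1.36% and 1.42%. Without the second poplar library 7 were called higher and 24 lower on poplar, against 1.95% and 1.64%. Without the third maltose library 17 were called higher and 64 lower on poplar, against 3.69% and 31.7% of all genes. On switchgrass 16 were then called higher and 48 lower, against 5.14% and 23.6%.

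Switchgrass against poplar compares libraries of one preparation that the choice of genes did not use. Limma called 0 of the 120 genes at an adjusted p under 0.05, against 0.025% of all genes tested. At an unadjusted p under 0.05 there were 8 (6.67%), against 4.38% of all. In 5 genes all 3 switchgrass libraries lay above every poplar library (4.17%, against 2.83% of all tested and 2.69% of the 8359). In 3 genes all lay below (2.5%, against 1.89% of all tested and 0.359% of the 8359). These counts are small, and no difference from the other genes was tested. The smallest adjusted p was 0.185, in TR718__c0_g2, named here for that p, which was at 16.1, 75.7 and 3.92 TPM on switchgrass against 1.35, 0 and 0.32 TPM on poplar. Its control values were 13.4, 10.8 and 16.5 TPM, so poplar was below control while switchgrass spanned it. Its log2 fold change of switchgrass over poplar was 3.67 ± 0.792, and without the third switchgrass library limma called it at 4.63 (adjusted p = 0.0371). Without the third maltose library TR11619__c0_g1 was called lower on switchgrass than on poplar, at -3.09 ± 0.497 (adjusted p = 0.0154). That gene was at 0.30, 0 and 0 TPM on switchgrass against 6.26, 7.69 and 11.8 TPM on poplar. Of all genes tested, 0.0882% were called higher and 0.021% lower without that maltose library. The shares were 0.0805% and 0.0212% without the third switchgrass library. In a fit to the 2 groups they were 0.113% and 0.0356%, and with median-of-ratios scaling 0.165% and 0.401%. The median log2 fold change was 0.59 for the 120 genes and 0.27 for all genes. It was 0.08 and -0.03 with median-of-ratios scaling, and 0.11 and -0.02 without the second poplar library.

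What the genes share in the assembly was limited. They fell in 108 assembly clusters, of which 9 held 21 of them, so a few of the 120 may be parts of one locus. Cluster TR14053 gave 4 genes of its 7, at 10.8 to 46.9 TPM in control. Levels within it correlated at 0.78 to 0.92 over the 16 libraries, which include those used for the choice. Of the 120 genes, 40 had more than 1 assembled isoform (33.3%, against 35.3% of the 8359). The most abundant isoform was the same on sugar and in control for 31 of those 40 (77.5%, against 89.4% of 2947 such genes). It was the same on plant material and in control for 25 of the 40 (62.5%, against 78.6%). The rule capped the sugar values of the 40 and not those of the 2947, and these sets were not matched on level. Nothing is read from these shares. The gene with the most isoforms, TR14799__c0_g1, had 12.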

How the data were processed

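Strain PB94 was measured by RNA sequencing in 16 libraries. Both tables that the authors deposited list 45286 assembled transcripts in TPM. The one whose column names are used carries a name of estimated counts, but its columns sum to 1000000 within 0.87 and were treated as TPM. RSEM made the estimates, per the submitters' processing notes (version, assembler, aligner, filters: not given in the sources used here). Sugar and control libraries followed an mRNA protocol and plant libraries were rRNA-depleted, per the labels' protocols. Depth is unknown, so no counting intervals are given.

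Isoforms were summed to 27990 genes. A gene was tested (23981 were) when 3 or more libraries had 1 TPM or more. Limma 3.58.1 (R 4.3.3) with its trend option was fitted to log2(TPM + 1) in all 16 libraries, 1 mean for each of 6 groups. P-values were adjusted by Benjamini-Hochberg, and under 0.05 counted as a call. Fold changes on this scale understate low genes. With 3 libraries a group, no exact test of single genes was run. The fit was tested on simulated data. Of the columns, 0 were left unmapped.

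The 120 genes, the comparisons and the rules were chosen with earlier results of these data known. Named genes were the 10 highest in control, the 10 with the largest ratio of control to sugar, the 5 highest and 5 lowest plant to control ratios, the 5 widest gaps between sugars, any gene called in cellobiose against maltose or switchgrass against poplar as tested (0), and 3 on each side of the threshold; others are marked as chosen after their values were seen or belong to a count. Alternatives were another pseudocount (0.1), other filters, fits to 2 groups, a replicate block, median-of-ratios scaling, the other column names, and libraries left out.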

Additional observations from a re-analysis of the deposited data

How the results depend on the processing

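Counts of the 120 genes called, with the stated value first, depended on the setting as follows. Switchgrass against poplar (0) gave 1 in a fit to the 2 groups, 1 with median-of-ratios scaling, 1 without the third maltose library, 4 with both of these (1 higher, 3 lower), and 0 to 1 with a library left out. With both, 0.486% of all genes were called higher and 0.922% lower. Poplar against control (51) gave 83 in the 2-group fit, 81 without the third maltose library, and 31 to 63 with a library left out. Of all genes tested, 4.85% were called higher and 37.6% lower in the 2-group fit, and 3.69% and 31.7% without the third maltose library. The shares were 1.95% and 1.64% where 31 were called, and 1.98% and 12.7% where 63 were. Switchgrass against control (38) gave 25 with a pseudocount of 0.1, 65 in the 2-group fit, 64 without the third maltose library, 59 with scaling as well, and 21 to 40 with a library left out. Of all genes tested, 1.66% were called higher and 3.52% lower with that pseudocount, and 6.55% and 32.4% in the 2-group fit. Without the third maltose library the shares were 5.14% and 23.6%, and 14% and 16.9% with scaling as well. They were 1.36% and 1.42% where 21 were called, and 3.15% and 3.78% where 40 were. Cellobiose against maltose (0) gave 1 with scaling, 3 with scaling minus the third maltose library, and 0 to 2 with a library left out. All of these were called lower, as were 0.231% of all genes tested with scaling and 6.1% with scaling minus that library. The 2 came without the third maltose library, where 5.16% of all genes were called lower. The median log2 fold change of cellobiose against maltose (0.36) turned to -0.59 and -0.57 in those scaled fits. With a library left out it ranged from -0.41, without the third maltose library, to 0.80, without the second. The rule (120 genes) gave 242 at 1.5 times, 46 at 3 times, 77 with scaling, and 122 to 172 with a library left out. All plant libraries above control (13) became 28 with scaling, and 13 to 18 with a plant library left out. Scaling also raised the median log2 fold change over all genes, from -0.74 to 0.27 on poplar and from -0.58 to 0.14 on switchgrass. The 28 is therefore not read as a result about the 120 genes. All plant libraries below control (50) became 50 to 59 with a plant library left out. Leaving out a plant library can only keep or raise either count. The cause of these shifts was not tested.

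Under the other table's column names, 53 genes were called for switchgrass against poplar, 64 for poplar against control, 81 for switchgrass against control, with a median of 2.17, and 62 for cellobiose against maltose. Of all genes tested, 0.667% were called higher and 0.751% lower for switchgrass against poplar, and 30.5% and 4.08% for poplar against control. The shares were 30.9% and 3.73% for switchgrass against control, and 6.5% and 26.5% for cellobiose against maltose. The rule then gave 1 gene. The 10 genes named for plant to control ratio turned round. On poplar the log2 fold changes became -8.93 (TR8734__c0_g2), -8.63 (TR13643__c4_g1), -6.24 (TR11346__c0_g1), -8.30 (TR13643__c1_g1), -7.79 (TR8062__c0_g1), 6.60 (TR17256__c0_g1), 6.42 (TR5381__c0_g1), 4.57 (TR2410__c0_g1), 4.05 (TR6005__c0_g1) and 3.51 (TR8628__c0_g1). On switchgrass they became, in the same order, -5.91, -5.39, -4.27, -4.71, -4.63, 10.19, 10.08, 8.30, 7.32 and 5.92. These switchgrass values, like the median of 2.17, are those of poplar against control under the names used here, with the sign changed. They repeat that comparison with its sides exchanged and are not a separate result.

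With the replicate number as a block, 46 genes were called on poplar and 37 on switchgrass against control, and 0 in both other comparisons. Of all genes tested, 1.96% were then called higher and 6.33% lower on poplar, and 2.42% and 4.12% on switchgrass. Same-numbered deviations correlated at -0.19 to 0.07, which cannot tell whether same-numbered libraries shared a culture or batch. Depth is unknown, and how it limits low values was not tested.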
